A study of Mus musculus with 12 samples.

Results

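The nuclear genes of 10 mitochondrial aminoacyl-tRNA synthetases are described here across the Esr1 knockout comparison in muscle and in bone. They are Lars2, Iars2, Vars2, Mars2, Wars2, Yars2, Nars2, Sars2, Tars2 and Fars2, and all 10 had a row among the 25655 genes of each table. The family was picked because Lars2 was called lower in muscle knockout cells, and the question is whether the other 9 members followed it. The muscle values of Lars2 are therefore a description and carry no test here.

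Per the labels, RNA came from PDGFRα+ mesenchymal cells sorted from muscle (CD45-, CD31-, Vcam1-) or bone (CD45-, CD31-) of female mice. The muscle knockout group (PDGFRα-CreER;Esr1flox/flox, n = 3) was set against 2 control samples with PDGFRα-CreER and 1 with PDGFRα-CreER;Esr1flox/+. The bone knockout group (PDGFRα-CreER;Esr1flox/flox, n = 3) was set against 2 control samples with PDGFRα-CreER and 1 with Esr1flox/flox and no Cre. Every knockout sample and all but 1 control sample, in bone, thus carried the Cre, which deletes only in cells where the Pdgfra gene drives it, and age and any Cre induction are not stated in the labels. Libraries were read from transcript 3' ends. Values per library could not be tied to samples by their names, so levels are the larger of the knockout and control group means of a gene, in a unit that the header does not name. Depth per sample, replicate spread and the number of samples behind each value are not given in the columns used. The labels name no animal for any replicate, so a p can at most measure the spread between these samples, which may be technical in part. In both control groups that spread also spans 2 genotypes. The test is not named, so how far a p reflects the spread of its own gene cannot be given.

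An aminoacyl-tRNA synthetase joins an amino acid to its tRNA. The mitochondrial set is encoded in the nucleus, imported into mitochondria, and charges the mitochondrial tRNAs that read the transcripts of the mitochondrial genome, which encode core respiratory chain subunits. The enzymes fall into class I, which holds the leucine, isoleucine, valine, methionine, tryptophan and tyrosine enzymes, and class II, which holds the asparagine, serine, threonine and phenylalanine enzymes. In humans, inherited loss of function of several of them causes disease of nerve, muscle, ear or ovary.

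Because Esr1 encodes a factor that binds DNA, the promoter windows of the 4 members with the highest level in either table are shown, from RefSeq on GRCm38.p6. Each window has 300 bases and runs 5′ to 3′ on the gene's own strand across the gene start. Capitals mark matches on either strand to the full palindromic estrogen response element and to GGTCA (its core repeat, contained in it). They also mark matches on either strand to the NRF1 motif, to AANATGGC (YY1) and to CCGGAA (ETS factors). The windows are Lars2 at chr9:123366677-123366976 (plus strand), Iars2 at chr1:185329352-185329651 (minus strand), Mars2 at chr1:55236927-55237226 (plus strand) and Yars2 at chr16:16302715-16303014 (plus strand).
Lars2: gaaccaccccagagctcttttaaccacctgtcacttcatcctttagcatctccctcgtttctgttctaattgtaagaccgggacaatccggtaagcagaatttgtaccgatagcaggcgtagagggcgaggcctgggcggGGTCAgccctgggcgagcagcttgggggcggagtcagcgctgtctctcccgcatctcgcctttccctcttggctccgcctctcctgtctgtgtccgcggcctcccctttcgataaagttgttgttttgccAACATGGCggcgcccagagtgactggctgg
Iars2: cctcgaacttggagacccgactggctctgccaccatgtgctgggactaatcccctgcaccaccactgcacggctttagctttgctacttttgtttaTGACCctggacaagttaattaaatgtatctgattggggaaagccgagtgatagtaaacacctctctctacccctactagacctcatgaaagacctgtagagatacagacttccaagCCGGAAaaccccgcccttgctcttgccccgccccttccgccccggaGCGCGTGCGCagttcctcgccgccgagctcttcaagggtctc
Mars2: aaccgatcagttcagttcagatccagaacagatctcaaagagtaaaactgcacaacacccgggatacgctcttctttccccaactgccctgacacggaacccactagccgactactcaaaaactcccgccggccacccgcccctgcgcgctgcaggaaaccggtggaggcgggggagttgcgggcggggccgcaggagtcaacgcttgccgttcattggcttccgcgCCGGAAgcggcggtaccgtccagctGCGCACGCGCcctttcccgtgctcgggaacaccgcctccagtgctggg
Yars2: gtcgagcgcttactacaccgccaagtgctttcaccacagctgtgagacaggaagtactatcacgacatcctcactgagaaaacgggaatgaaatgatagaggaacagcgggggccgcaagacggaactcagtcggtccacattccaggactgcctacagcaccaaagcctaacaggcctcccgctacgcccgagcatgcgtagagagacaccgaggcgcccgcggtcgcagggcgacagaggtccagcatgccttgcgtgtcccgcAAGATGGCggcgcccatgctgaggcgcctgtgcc

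The windows of Lars2 and Iars2 each held 1 match to the GGTCA core, and those of Mars2 and Yars2 held none. All 10 members had a window. The full estrogen response element was found in 0 of the 10, against 0.0700% of all 32851 promoter windows. The GGTCA core was in 5 of 10 members and 40.5% of all windows. The NRF1 letters were in 2 of 10 members, Mars2 and Iars2, and 4.60% of all windows. The YY1 letters were in 3 of 10, Lars2, Wars2 and Yars2, and 6.05% of all windows, and the ETS letters in 5 of 10 and 14.9%. A match is a run of letters in the window and not a bound site. The Lars2 window had a GC content of 58.3% and 18 CpG, against medians of 52.7% and 7 over all windows.

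Lars2 stood far above the rest of the family in level. Lars2, the leucine enzyme, had a larger group mean of 1836 in the muscle table and 1674 in the bone table, both as listed in the authors' deposited table, at rank 83 and rank 39 of all genes. The next member was Iars2 in muscle, at 43.6 in the authors' deposited table, and Mars2 in bone, at 33.7. Lars2 was thus 42.1-fold above the next member in muscle and 49.6-fold in bone on the deposited scale. Of the larger group means of the 10 members added together, it was 94.7% in muscle and 97.2% in bone. No header says whether the scale accounts for transcript length, so this is an order of deposited values.

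**Figure D1:**
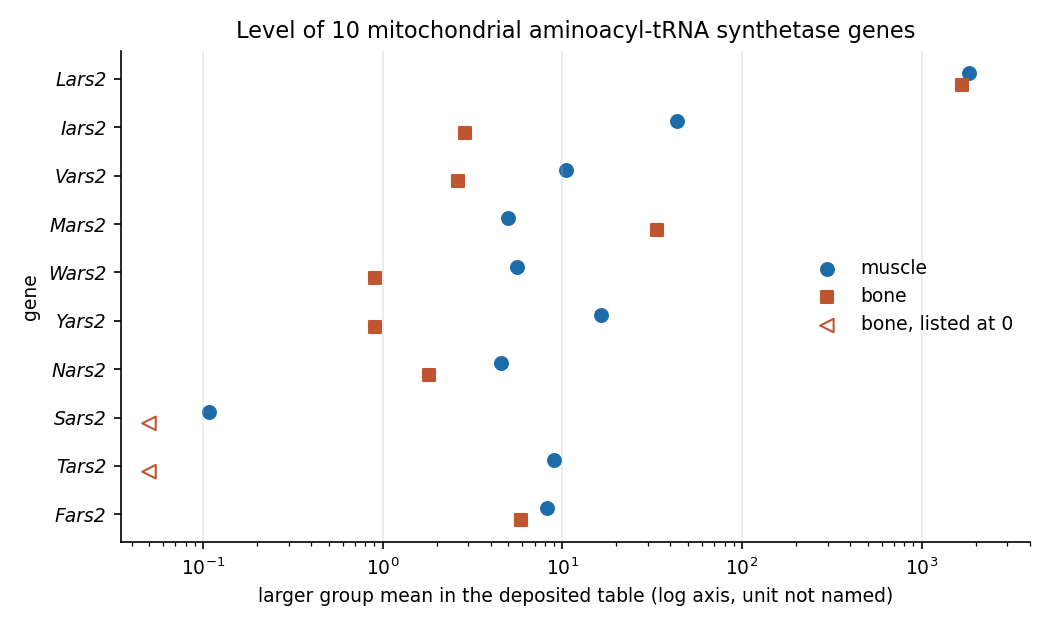
Larger group mean (the higher of the knockout and control means, log axis, unit not named) of each of the 10 genes in the muscle table (circles) and the bone table (squares), with open triangles for genes listed at 0 in bone. Lars2 lies at 1836 in muscle and 1674 in bone, and no other member exceeds 43.6.

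After Lars2 and Iars2, the muscle order in the authors' deposited table was Yars2 (16.5), Vars2 (10.5), Tars2 (8.997), Fars2 (8.22), Wars2 (5.59), Mars2 (4.97), Nars2 (4.56) and Sars2 (0.108). In bone the authors' deposited table gave, after Lars2 and Mars2, Fars2 (5.85), Iars2 (2.86), Vars2 (2.61), Nars2 (1.82), Yars2 (0.912) and Wars2 (0.908). Sars2, the serine enzyme, and Tars2, the threonine enzyme, were listed at 0 in bone in the authors' deposited table. These means carry no error in the columns used, so which neighbours in the order differ beyond their spread cannot be given.

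In muscle the values of the other members lay in both directions, with errors too wide to say whether the family followed Lars2. In the authors' deposited table Lars2 (ENSMUSG00000035202) was 2.50-fold lower in the knockout, a log2 fold change of -1.32 (p = 4.24e-05, FDR = 0.0377). That fold change and p imply a standard error of 0.32 on the log2 scale under a normal approximation. It was the single member called lower at an FDR under 0.05, at which 0.0704% of the 7107 genes with an FDR were called lower, and 0 members were called higher, beside 0.0563% of genes. The call was lost when p-values were adjusted over every gene with a p (0.0697, in a range of 0.0191 to 0.558 over the alternatives). Of all 10 members, 5 had a positive and 5 a negative value, with a median of 0.17, beside 53.5% positive and a median of 0.12 over the 13158 genes with a p. Without Lars2, 5 of 9 members were positive and the median was 0.62. The implied standard errors of these 9 ran from 1.04 (Iars2) to 3.37 (Tars2), beside the -1.32 of Lars2.

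In muscle 2 of 10 members, Lars2 and Iars2, had an FDR, and the other 8 had a p alone. Adjusted over every gene with a p, these 8 had values of 0.417 to 0.986 and did not pass either. Genes above 5 and up to 10 in group mean kept an FDR in 0.0627% of cases in the authors' deposited table, and genes above 20 and up to 50 in 99.4%. Iars2, the isoleucine enzyme, stood at 0.62 in the muscle comparison (authors' deposited table, FDR = 1.00, implied standard error 1.04), a value smaller than its error.

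**Figure D2:**
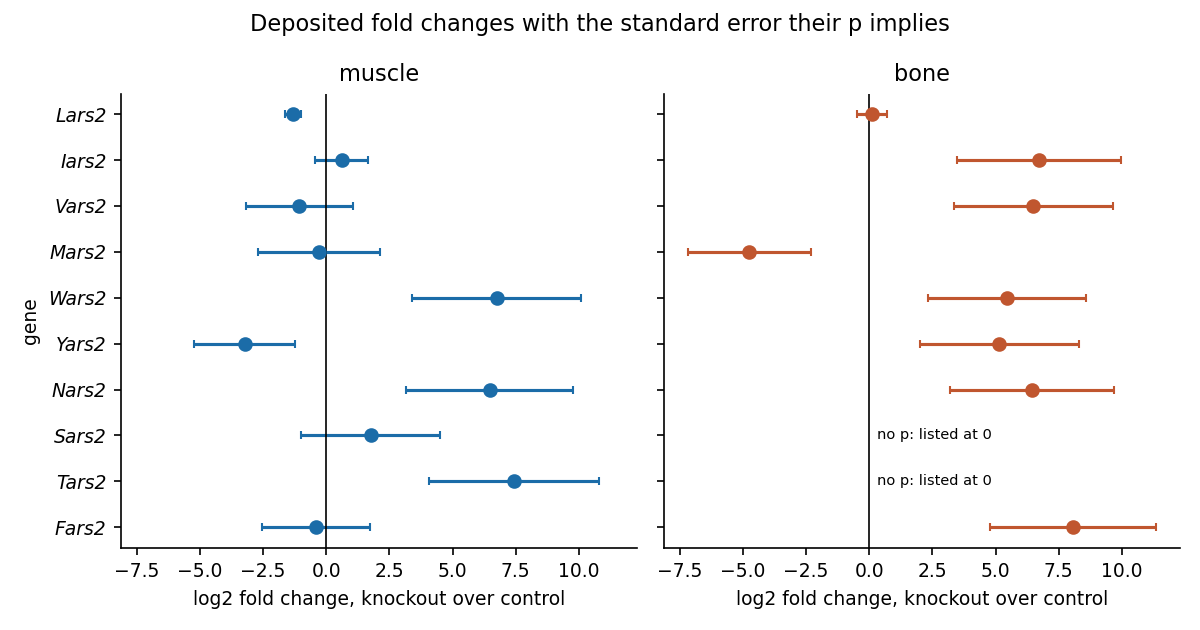
Log2 fold change of each gene, knockout over control, in muscle (left) and bone (right), from the authors' deposited table, with bars of 1 standard error implied by the deposited p under a normal approximation. Lars2 has the shortest bars, 0.32 in muscle and 0.59 in bone, and Sars2 and Tars2 have no value in bone.

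Among the other class I enzymes, muscle values ran in both directions with wide errors. Vars2, the valine enzyme, had -1.06 in the authors' deposited table (p = 0.617). Mars2, the methionine enzyme, had -0.28 in the authors' deposited table (p = 0.906). Both lay within their implied standard errors of 2.12 and 2.40. Yars2, the tyrosine enzyme, which in humans is linked to myopathy with sideroblastic anaemia, had -3.22 in the authors' deposited table (p = 0.106, implied standard error 2.00). Wars2, the tryptophan enzyme, had 6.74 in the authors' deposited table (p = 0.0433), at a larger group mean of 5.59.

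Values of the class II enzymes in muscle ran in both directions too. Tars2 had 7.42 in the authors' deposited table (p = 0.0276), and Nars2, the asparagine enzyme, had 6.48 (p = 0.0503). Fars2, the phenylalanine enzyme, had -0.41 in the authors' deposited table (p = 0.846). Sars2 had 1.76 in the authors' deposited table (p = 0.522) at a larger group mean of 0.108. In muscle 367 genes, Sars2 included, shared that fold change within 0.001, and all 255 other genes within 10% of its level had 1.76. At an unadjusted p under 0.05, 2 of 10 members were higher (Tars2 and Wars2) and 1 lower (Lars2), against 6.41% and 5.31% of all genes with a p.

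The large positive values belonged to weakly detected members and lay where many other genes of that level lay. Among 534 other muscle genes with a group mean within 10% of that of Tars2, 15.9% had a log2 fold change above 5. The share was 24.3% of 399 genes around Wars2 and 30.2% of 378 genes around Nars2. The maximum around Tars2 was 7.73, close to its own 7.42. A value on that edge can mean that 1 group had almost no reads, which the columns used do not show, so these values are not estimates of size.

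Lars2 lay near the lower end of the muscle genes around its own level. The 16 other muscle genes with a group mean within 10% of that of Lars2 had log2 fold changes of -0.65 to 0.17, and none was as low as its -1.32. Within a factor of 2 of its level, among 144 muscle genes including Lars2, the median was -0.05 and 1 gene was lower, the alpha globin gene Hba-a2 at -1.41 in the authors' deposited table (FDR = 0.455). These values come from the comparison that chose Lars2 and are given as a description.

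**Figure D3:**
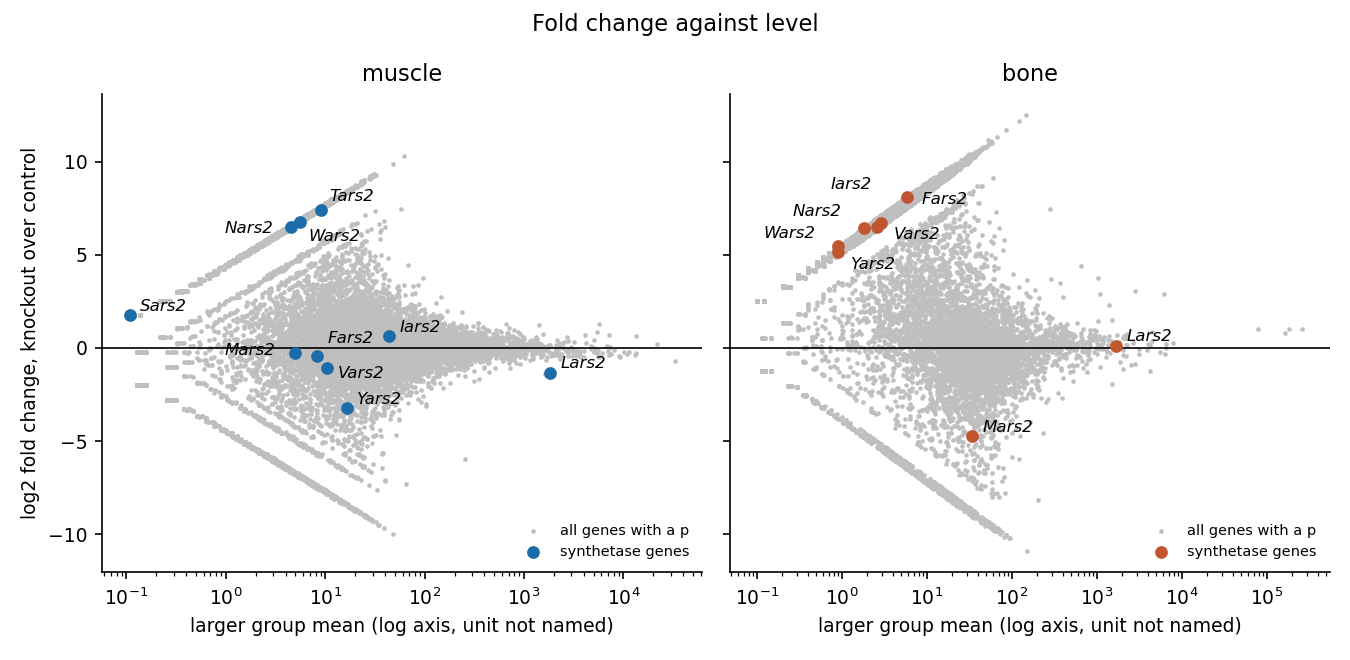
Log2 fold change, knockout over control, against the larger group mean (log axis, unit not named) for every gene with a p (grey) and for the synthetase genes (coloured, named), in muscle (left) and bone (right). Weakly detected members with values above 5 lie on the upper diagonal band of grey points, and Lars2 at -1.32 in muscle lies below the 16 genes nearest to it in level.

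In bone, a comparison that did not choose the members, Lars2 did not pass the test. The authors' deposited table put its log2 fold change at 0.12 (p = 0.835, FDR = 0.933), with an implied standard error of 0.59. Among the 6 other bone genes within 10% of its level the values ran from -1.95 to 1.52. The difference between the muscle value of -1.32 and the bone value of 0.12 was not tested, because Lars2 was selected on the first of them. In bone, erythroid markers stood at larger group means of 2275 to 263063 and mesenchymal stromal markers at 8.60 to 688. The part of other cells in the bone value of Lars2 was not tested.

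No member passed an FDR of 0.05 in bone, where 0.0352% of the 8534 genes with an FDR did, by the authors' test. Of 10 members, 6 had an FDR, 2 a p alone and 2 neither. Of the 8 with a p, 7 were positive and 1 negative, against 69.7% positive over all 10518 genes with a p. At an unadjusted p under 0.05, 4 members were higher and 0 lower, against 28.8% and 4.2% of all genes with a p. The 4 were Fars2 (8.07, FDR = 0.0805), Iars2 (6.72, FDR = 0.107), Vars2 (6.50, FDR = 0.108) and Nars2 (6.43, FDR = 0.119) in the authors' deposited table. At an FDR under 0.1 Fars2 alone passed, with 28.1% of genes called higher at that threshold. Fars2 sat in the range of group means above 5 and up to 10, where 67.4% of all bone genes had an unadjusted p under 0.05. Iars2, Vars2 and Nars2 sat above 1 and up to 5, where 50.6% did and 87.3% of genes were positive. The median of the members was 5.94 and that of all genes 2.51.

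Mars2 was the member with a negative value in bone. The authors' deposited table put its log2 fold change at -4.74 (p = 0.0520, FDR = 0.126, implied standard error 2.44), at a larger group mean of 33.7. Of 412 other bone genes within 10% of that level, 11.4% had a lower value. In muscle the authors' deposited table gave Mars2 a larger group mean of 4.97 and a log2 fold change of -0.28. In bone the authors' deposited table held no FDR for Wars2 (5.44, p = 0.0818) and Yars2 (5.15, p = 0.102).

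The 7 other genes listed here as mitochondrial synthetases were also low in level. None had a larger group mean above the 18.02 of Hars2 in muscle and the 23.2 of Ears2 in bone in the authors' deposited table. Gars and Kars were not among them and were listed with the cytosolic genes. Their larger group means were 23.5 and 30.4 in muscle and 62.9 and 19.98 in bone. In muscle 0 of 7 passed the authors' FDR, 1 was higher and 0 lower at an unadjusted p under 0.05 (6.41% and 5.31% of all genes), and 3 were positive and 4 negative. Pars2, the proline enzyme, stood at 6.85 (p = 0.0405) in the muscle columns of the authors' deposited table, Ears2, the glutamate enzyme, -4.58 (p = 0.117), Hars2, the histidine enzyme, -2.15 (p = 0.340) and Aars2, the alanine enzyme, -1.89 (p = 0.397). In bone 0 of 7 passed the authors' FDR, 3 were listed at 0, and of the 4 with a p 1 was higher and 1 lower at an unadjusted p under 0.05 (28.8% and 4.2% of all genes). Hars2 had 8.54 and Ears2 -8.37 in bone in the authors' deposited table (FDR = 0.0784 for both), and Rars2, the arginine enzyme, had -5.49 (p = 0.0806).

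The cytosolic synthetases and the proteins of their complex were detected more widely, and none passed. In muscle 19 of 23 had an FDR, 0 rose and 0 fell by the authors' test, and the median was 0.33. At an unadjusted p under 0.05, 1 of 23 was higher and 1 lower, against 6.41% and 5.31% of all genes. The cytosolic leucine enzyme gene Lars stood at 0.33 (p = 0.794) in the muscle columns of the authors' deposited table. Its level was 32.9 there, against 1836 for Lars2, both as larger group means. Those of smallest p in muscle were Hars (4.78, p = 0.0152), the complex scaffold gene Aimp1 (-1.69, p = 0.0476), Eef1e1 (3.91, p = 0.110) and Iars (-2.15, p = 0.201) in the authors' deposited table. In bone 0 of 19 with an FDR passed. Of 22 with a p, 7 were higher and 0 lower at an unadjusted p under 0.05, against 28.8% and 4.2% of all genes, and the median was 2.09, against 2.51. Cars (9.86), Iars (9.26), Lars (8.97) and Farsb (8.66) had the smallest p in bone in the authors' deposited table, with an FDR of 0.0784 each.

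Genes that process or modify mitochondrial tRNAs, before or after charging, did not pass in either tissue. Of 23 listed, 22 had a row, 7 had an FDR in muscle and 7 in bone, and 0 rose or fell by the authors' test. At an unadjusted p under 0.05, 4 of 20 with a p were higher and 0 lower in muscle, against 6.41% and 5.31% of all genes. In bone 3 of 8 with a p were higher and 1 lower, against 28.8% and 4.2%. The medians were -0.21 in muscle and 0.76 in bone, against 0.12 and 2.51 over all genes. Those of smallest p in muscle were Gtpbp3 (7.58), Osgepl1 (7.08), Mto1 (6.59) and Prorp (6.51), whose p in the authors' deposited table were 0.0197, 0.0326, 0.0411 and 0.0495. Their larger group means were 9.24, 6.93, 4.999 and 4.68. Of muscle genes above 5 and up to 10 in group mean, 33.4% had an unadjusted p under 0.05 in either direction. Above 1 and up to 5 the share was 11.5%. Gtpbp3 and Mto1 modify the wobble base of mitochondrial tRNAs, and Prorp cuts their 5' ends. In bone Nsun3 had 9.94, Prorp -9.28, Qrsl1 8.25 and Trmt10c 6.48 in the authors' deposited table (FDR of 0.0784, 0.0784, 0.0796 and 0.111). Prorp was thus positive in muscle, where it had no FDR, and negative in bone, where it did not pass.

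Genes of mitochondrial translation and of the handling of its transcripts and products did not pass either. In muscle 3 of 15 had an FDR, 0 rose or fell by the authors' test, 0 had an unadjusted p under 0.05, and the median was 1.03. Mtrf1l, a release factor gene, stood at -3.65 (p = 0.127) and Mtif3, an initiation factor gene, at 2.77 (p = 0.222) in the muscle columns of the authors' deposited table. The same columns of the authors' deposited table gave Gfm2 3.02 (p = 0.280) and Lrpprc 1.93 (p = 0.366). In bone 9 of 15 had an FDR and 0 rose or fell by the authors' test, and the median was 3.75, against 2.51 over all genes. Of 11 with a p, 4 were higher and 1 lower at an unadjusted p under 0.05, against 28.8% and 4.2% of all genes. Slirp, which stabilises mitochondrial transcripts, had 10.73, Oxa1l 8.69, Gfm1, an elongation factor gene, 8.27 and Mterf4 -8.09 in bone in the authors' deposited table (FDR of 0.0784, 0.0784, 0.0787 and 0.0796).

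**Figure D4:**
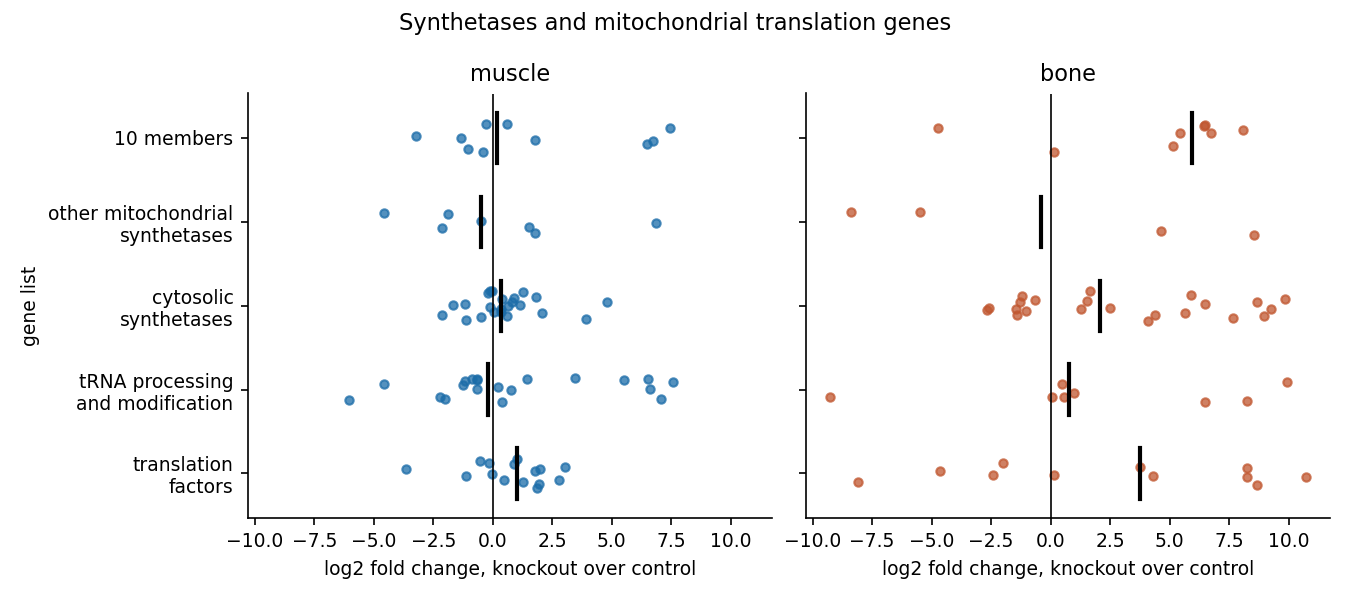
Log2 fold change, knockout over control, of each gene with a p in 5 gene lists, in muscle (left) and bone (right), with a black bar at the list median and random vertical spread. The medians in muscle lie between -0.51 and 1.03, and those in bone between -0.42 and 5.94, beside medians over all genes of 0.12 in muscle and 2.51 in bone.

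Some lists of cell markers had values of one sign in the muscle comparison in which Lars2 was lower, and others did not. Over all muscle genes with a p, 53.5% were positive, and 6.41% were higher and 5.31% lower at an unadjusted p under 0.05. The 7 mesenchymal stromal markers were all positive (median 0.59, 0 passing the authors' FDR, 3 at an unadjusted p under 0.05, larger group means of 162 to 13437). The 5 erythroid markers were all negative (median -0.99, 0 passing, 2 at an unadjusted p under 0.05, larger group means of 37.7 to 1607). Of the 5 muscle stem cell and fibre markers, the stem cell genes Pax7 and Myf5 were listed at 0, and the authors' deposited table gave negative values to the fibre genes Acta1 (-0.52), Ckm (-1.77) and Mylpf (-0.25). Their levels were 35.6, 49.7 and 16.6 as larger group means, and none of the 3 passed. Endothelial, leukocyte and mural markers each had 2 positive and 2 negative values, with medians of 2.63, 0.23 and -0.09, and 1 endothelial marker was higher at an unadjusted p under 0.05. Their larger group means ran from 0.302 to 11.9, from 0.781 to 61.4 and from 23.9 to 458. Of 4 neutrophil markers with a p, 1 was positive and 3 negative (median -4.21, 1 lower at an unadjusted p under 0.05), at larger group means of at most 17.3, and Ltf was listed at 0.

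In bone 69.7% of all genes with a p were positive, and 28.8% were higher and 4.2% lower at an unadjusted p under 0.05. Every erythroid marker was there above every stromal marker in level. The stromal markers had larger group means of 8.60 to 688, with 3 positive and 4 negative values, against 2275 to 263063 for the erythroid and 279 to 6106 for the neutrophil markers. The lowest stromal marker was Pdgfra, the gene of the sort marker, at 8.60 (rank 5391). In muscle Pdgfra stood at 494 (rank 338). All 5 neutrophil and all 5 erythroid markers were positive (medians 3.06 and 0.99, with 1 and 0 passing the FDR, and 5 and 0 at an unadjusted p under 0.05). The neutrophil marker that passed was Ltf, the lactoferrin gene. All 4 leukocyte markers were positive too (median 3.28, 0 passing, 2 at an unadjusted p under 0.05), in cells sorted as CD45-. Among them the authors' deposited table gave Ptprc, which encodes CD45, a positive value (p = 0.0655) at a level of 23.1, and Lyz2 2.28 (p = 0.0166) at a level of 1399. Endothelial, mural, and muscle stem cell and fibre markers had larger group means of at most 0.304, 15.5 and 0.505. The part of these cells in the synthetase values was not tested, and in sorted bulk cells fewer cells of a type and less RNA per cell cannot be told apart. The authors' deposited table gave Esr1 itself 1.02 in muscle (p = 0.404) and -2.69 in bone (p = 0.245), neither passing. Esr1 was planned as a check of the labels, and its muscle value was not lower in the knockout. A 3' tag need not lie in the deleted part, so these values leave the genotype unchecked.

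The position of the members bears on how their tags could be counted. Lars2 lies on the plus strand of chromosome 9 at 123195992 to 123291731, as the files give it, in a build that they do not name. None of the 10 intervals matched the GENCODE M21 annotation of GRCm38 in position, although GRCm38 and mm10 are the builds in the submitters' processing notes. The Lars2 interval was 95740 bases long in both, with a start difference of -170935 bases. No other gene of that annotation overlapped Lars2, and the last 300 bases of its coding transcripts matched no other gene's transcript at 95% identity over 50 bases. The search did not cover tags from elsewhere in the gene or RNA absent from those transcripts, so it cannot show which reads were counted to Lars2. In that annotation the last 1000 bases of Iars2 overlap Rab3gap2 on the opposite strand, those of Vars2 the antisense gene Gm20483, and those of Fars2 the opposite-strand gene Nrn1. No label or header says whether counting used strand. Whether reads in these overlaps of the 3 members were counted apart from those of their partners therefore cannot be given.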

How the data were processed

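RNA of PDGFRα+ cells was made into QuantSeq 3' mRNA-seq libraries, per the labels' protocols. There are 2 tables, 1 per tissue, for 12 samples in 4 groups of 3. No label or header names the aligner, the counting tool or the test. Per the file headers, the deposited log2 fold changes are of knockout over control, so that positive ones are higher in the knockout. The p-values, the FDR and the Bonferroni values were also computed by the authors. The deposited larger group mean is used as a score in an unnamed unit. A further 48 columns of per-library values carry names that match no sample label and were not used, so the planned count-based tests and the search for genes with a pattern like that of Lars2 were not run. Calls rest on the deposited FDR, under 0.05. A Benjamini-Hochberg adjustment, tested on simulated data, differed from it by at most 0.000995 in muscle and by at most 0.000142 in bone. Implied standard errors are the size of the log2 fold change over the normal quantile of the p (scipy 1.17.1). Named genes are the 10 members and, of each list of synthetase, tRNA or translation genes, those that passed or else the 4 of smallest p, of which 1 is not reported here. Lars, Hba-a2, mt-Nd6 and the cell markers were named after their values were seen. Of 9 listed ribosomal and other noncoding RNAs, 0 had a row. Similarity of 3' ends was searched with blastn in GENCODE M21 transcripts. The members and lists were chosen with earlier results of these data known. Alternatives were other adjustments and thresholds, a group mean of at least 50, and a family of 17 genes.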

Additional observations from a re-analysis of the deposited data

How the results depend on the processing

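In muscle, 1 member (Lars2) was called under the authors' FDR and at an FDR under 0.1. It was also the call among the 17 genes listed as mitochondrial synthetases, and when the adjustment was restricted to a group mean of at least 50. The count was 0 with the authors' Bonferroni p and 0 with Benjamini-Hochberg over every gene with a p; the adjusted p of Lars2 was then 0.558 and 0.0697. The second of these differs by adding genes of low level to the adjustment. In bone the count was 0 under every adjustment at 0.05 and 1 (Fars2) at an FDR under 0.1, where 28.1% of bone genes were called higher. The median log2 fold change in muscle, 0.17 over 10 members, was 0.62 without Lars2, -1.32 at a group mean of at least 50 (Lars2 alone), -0.35 over members with an FDR and -0.28 over 17 genes. In bone it was 5.94, and 6.43, 0.12, 6.46 and 5.29 in the same settings. Its sign in muscle thus depends on which members are counted. No paired analysis was possible because the columns used carry no replicate number. Another normalization, no filter on low counts and leaving out replicates were not run, since they need values per sample.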

Other observations

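The transcripts of the mitochondrial genome, which the charged tRNAs decode, were examined after the synthetase values were seen. In muscle all 13 had a negative log2 fold change in the authors' deposited table, from -0.65 to -0.10 with a median of -0.29, and 0 passed the authors' FDR, with 1 lower at an unadjusted p under 0.05. Over all muscle genes with a p, 53.5% were positive and 5.31% were lower at that threshold. These transcripts had larger group means of 835 to 13392. Among muscle genes above 1000, 37.6% were positive and the median was -0.09. In the authors' deposited table mt-Nd6, at -0.65, had the smallest p (p = 0.0253, FDR = 0.635). In bone 8 of 13 were negative and 5 positive, with a median of -0.24, 0 passing and 0 at an unadjusted p under 0.05. Over all bone genes with a p, 69.7% were positive, and 28.8% were higher and 4.2% lower at that threshold. Among bone genes above 1000 in group mean, 68.1% were positive. The 13 transcripts share libraries, so they are not independent of one another. In the authors' deposited table Lars2 had -1.32 in muscle and 0.12 in bone, the first below the whole muscle range of these transcripts and the second inside their bone range of -1.31 to 0.27.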
